A study of Mus musculus with 9 samples.

Results

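The 10 genes described here encode proteins by which adipocytes take up, store and release fat, together with the hormones they secrete. They were chosen by name, as well-known adipocyte genes, out of 54532 genes in the count table. The group holds the lipid uptake and carrier genes Lpl, Cd36 and Fabp4, the droplet coat gene Plin1, the lipase genes Pnpla2 and Lipe, and the secreted factors Adipoq, Lep, Retn and Cfd. They were read by bulk mRNA sequencing in cultured adipose-derived stem cells (ASCs) of C57BL/6 mice. The ASCs came from subcutaneous (Sub-ASC), abdominal (Ab-ASC) or perivascular (PVASC) adipose tissue, with 3 libraries for each depot and 9 in all. All cells were digested out of the tissue, grown in 1 stem cell medium holding serum, leukemia inhibitory factor and FGF, and harvested between passages 3 and 6. The sources used here describe no adipogenic induction of the sequenced cultures, and they do not give the age of the mice or say whether the libraries of a depot came from separate animals or cultures. The p-values below therefore measure the spread between these libraries, which may be technical.

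A mature adipocyte stores triglyceride in a lipid droplet. Lipoprotein lipase frees fatty acids from circulating lipoproteins, CD36 helps them across the membrane and FABP4 carries them in the cytosol. Perilipin-1 coats the droplet and guards it from adipose triglyceride lipase (Pnpla2) and hormone-sensitive lipase (Lipe), which act in turn on the stored fat. Adiponectin (Adipoq), leptin (Lep), resistin (Retn) and adipsin (Cfd) are secreted, and their genes are typically switched on late in adipogenesis, whereas Lpl is an early gene of that programme. ASCs are the stromal progenitors from which such adipocytes can be grown.

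The libraries held between 20524173 and 29881036 reads assigned to genes, and a level is given below in CPM, counts scaled to library size with TMM factors. Of all genes, 16526 had enough reads to be tested. Each adjusted p below was obtained with edgeR (quasi-likelihood F test), adjusted over these genes by the Benjamini-Hochberg method, with 0.05 as the threshold. Ab-ASC replicate 1 stood apart, with 11.9% of tested genes over 1.5-fold away from both other Ab-ASC libraries, against 3.75% to 6.05% for the other 8 libraries. The stem cell markers Ly6a, Thy1 and Eng were read in all groups, with mean Ly6a levels of 2049 CPM in Sub-ASC, 21.8 CPM in Ab-ASC and 111 CPM in PVASC, whereas Thy1 (332.5, 231 and 883 CPM) and Eng (108, 145 and 328 CPM) were highest in PVASC.

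Fabp4, Cd36, Lpl, Lipe and Pnpla2 had enough reads in every library. Adipoq, Cfd and Plin1 entered the test through the Sub-ASC libraries alone, which are the high ones, so a difference from Sub-ASC was built into their entry. Lep and Retn were not tested. All 5 genes above the filter in every library were lower in PVASC than in Sub-ASC, where 35.7% of all tested genes were lower and 70.4% differed in either direction. The same 5 were lower in Ab-ASC than in Sub-ASC, against a background of 38.3% lower and 75.3% different. Of these 5, 4 were at least 2-fold lower in PVASC than in Sub-ASC, where 16.6% of tested genes were, and 3 were at least 2-fold lower in Ab-ASC, where 21.3% were. The libraries of all 5 did not overlap between PVASC and Sub-ASC (77.3% of tested genes) or between Ab-ASC and Sub-ASC (76.5%), and those of 3 did not overlap between PVASC and Ab-ASC (63.9%). All 5 differed among the 3 groups, as 84.6% of tested genes did. Both comparisons with Sub-ASC share its libraries, and for Pnpla2 the calls ended in several settings given below. In bulk RNA, fewer cells of a type and less RNA per cell cannot be told apart.

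The summed level of the 10 genes ran from 3990 to 4280 CPM in Sub-ASC, from 417 to 551 CPM in Ab-ASC and from 209 to 214 CPM in PVASC. Lpl made up 92.9% to 93.4% of these reads in Sub-ASC, 77.1% to 78.3% in Ab-ASC and 51.0% to 52.3% in PVASC. The sum is therefore mostly a reading of 1 gene.

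**Figure D1:**
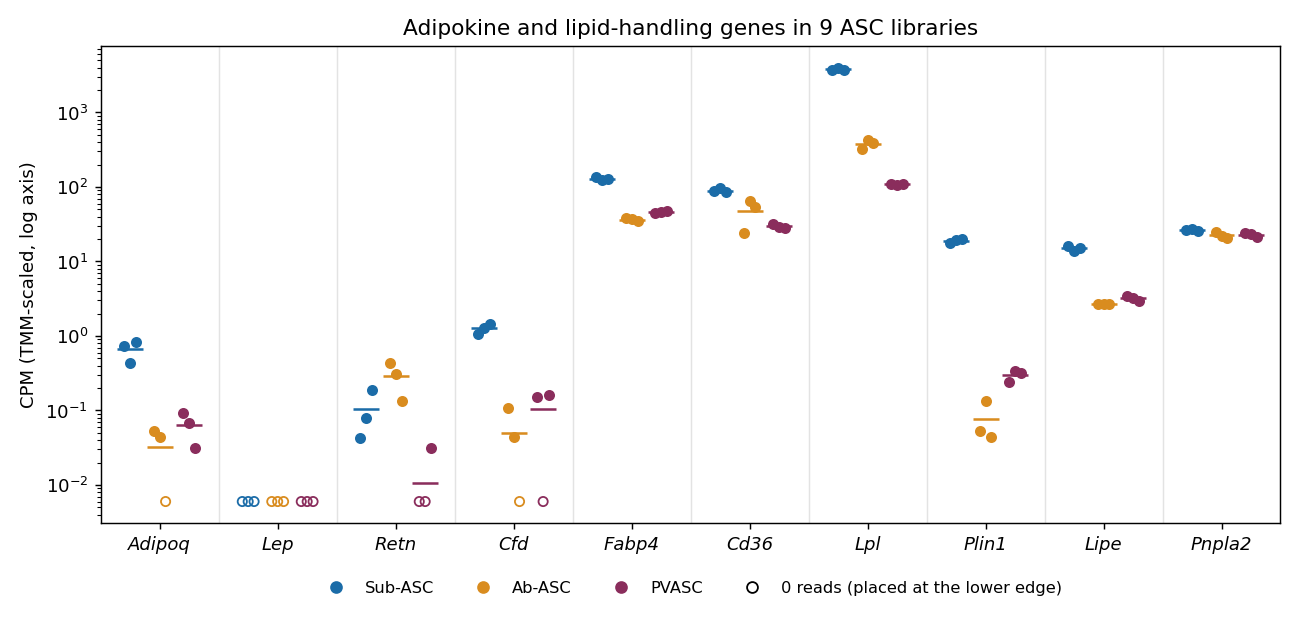
Level of the 10 genes in each library, in CPM on a log axis, with the 3 libraries of Sub-ASC, Ab-ASC and PVASC as points and the group mean as a bar. Open circles at the lower edge are libraries with 0 reads. Lpl spans from about 109 CPM in PVASC to 3816 CPM in Sub-ASC, Pnpla2 lies near 23 to 26 CPM in every group, and Lep has 0 reads throughout.

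Lpl (ENSMUSG00000015568, GRCm38 chr8:68880491-68907448, plus strand) had the most reads of the 10 genes in every group. The Sub-ASC libraries held 87072, 101705 and 97384 Lpl reads, the Ab-ASC libraries 6080, 9568 and 8746, and the PVASC libraries 3571, 3173 and 3465. The 3 groups did not overlap, with Sub-ASC highest and PVASC lowest. Mean levels were 3816 ± 157 CPM in Sub-ASC, 380.6 ± 50.1 CPM in Ab-ASC and 109 ± 1.35 CPM in PVASC (SD, n = 3 each). Lpl fell by 5.13 on the log2 scale in PVASC against Sub-ASC, a 35.0-fold difference (SE 0.0925, edgeR adjusted p = 1.69e-13). It fell by 3.33 in Ab-ASC against Sub-ASC, a 10-fold difference (SE 0.0848, edgeR adjusted p = 3.21e-12). PVASC lay below Ab-ASC as well, by 3.49-fold (log2 fold change −1.80, SE 0.0808, edgeR adjusted p = 3.41e-09), a comparison in which 56.9% of all tested genes differed and 32.1% were lower in PVASC.

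Genes that make, anchor or inhibit lipoprotein lipase were read alongside. Of 12 listed, 11 were tested, of which Gpihbp1 and Apoc1 were above the filter in all libraries of Sub-ASC only, so that a lower reading elsewhere was built in for that pair. In PVASC against Sub-ASC 10 were lower and 1 was higher, with a median log2 fold change of −1.14 against −0.0106 over all tested genes, of which 35.7% were lower and 34.7% higher. In Ab-ASC against Sub-ASC 9 were lower and 1 higher (median −0.55, all tested genes −0.0256, of which 38.3% were lower and 37% higher), and in PVASC against Ab-ASC 7 were lower and 1 higher (median −0.41, all tested genes −0.0552, of which 32.1% were lower and 24.7% higher). Among the 9 genes above the filter in every group, 8 were lower and 1 higher, 7 lower and 1 higher, and 6 lower and 1 higher in the same order. Gpihbp1 encodes the endothelial protein that holds the lipase at the capillary wall. Its reads were 54, 69 and 82 in Sub-ASC, 2, 11 and 8 in Ab-ASC and 1 in each PVASC library. From the summed reads, Gpihbp1 was 85.4 times higher in Sub-ASC than in PVASC, with a 95% exact counting interval of 28.8 to 417. Angptl4, an inhibitor of the lipase, had mean levels of 292 CPM in Sub-ASC, 254.5 CPM in Ab-ASC and 114 CPM in PVASC, and it was lower in PVASC than in both other groups (log2 fold changes −1.36 and −1.16, edgeR adjusted p = 1.71e-09 and 3.3e-08). The gene higher in both comparisons with Sub-ASC was Sdc1, a cell surface proteoglycan that binds lipoproteins, which was higher in PVASC than in Sub-ASC by 0.92 and in Ab-ASC by 1.46 on the log2 scale (edgeR adjusted p = 4.49e-08 and 5.2e-10) and lower in PVASC than in Ab-ASC (−0.54, edgeR adjusted p = 1.72e-05). The gene higher in PVASC than in Ab-ASC was Apoe, an apolipoprotein of the particles the lipase acts on (1.75, edgeR adjusted p = 2.96e-08). Its level was far higher in Sub-ASC, at 629 CPM against 12.5 CPM in Ab-ASC and 41.9 CPM in PVASC.

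Cd36 (ENSMUSG00000002944, GRCm38 chr5:17781690-17888801, minus strand) was read 2058, 2430 and 2229 times in Sub-ASC, 445, 1440 and 1195 times in Ab-ASC and 1037, 859 and 881 times in PVASC. The Sub-ASC libraries were all above the others. Ab-ASC replicate 1, at 23.9 CPM, lay below every PVASC library, while the other 2 Ab-ASC libraries lay above them. Cd36 was lower in PVASC than in Sub-ASC by 3.03-fold (log2 fold change −1.60, SE 0.244, edgeR adjusted p = 8.03e-05) and lower in Ab-ASC than in Sub-ASC by 1.90-fold (−0.92, SE 0.241, edgeR adjusted p = 0.00398). Between PVASC and Ab-ASC the log2 fold change was −0.67 (SE 0.246, edgeR adjusted p = 0.0338). That last call ended when any of 5 libraries was left out, namely Ab-ASC replicate 2 or 3 or PVASC replicate 1, 2 or 3 (adjusted p up to 0.148), and under DESeq2 (adjusted p = 0.114). Its log2 fold change was −0.40 without Ab-ASC replicate 2 and −0.99 without Ab-ASC replicate 1 (edgeR adjusted p = 0.148 and 4.13e-10). Against Sub-ASC the Ab-ASC value was −0.61 without Ab-ASC replicate 1 and −1.20 without Ab-ASC replicate 2, and passed the test in both.

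Fabp4 (ENSMUSG00000062515, GRCm38 chr3:10204088-10208576, minus strand) had 3192, 3125 and 3338 reads in Sub-ASC, 710, 826 and 783 in Ab-ASC and 1479, 1348 and 1506 in PVASC. No library overlapped another group. Its means were 129 ± 7.27 CPM, 36.6 ± 1.61 CPM and 46.3 ± 1.44 CPM in the same order (SD, n = 3 each). The level was 2.79-fold lower in PVASC than in Sub-ASC (log2 fold change −1.48, SE 0.0615, edgeR adjusted p = 3.21e-10) and 3.53-fold lower in Ab-ASC than in Sub-ASC (−1.82, SE 0.0633, edgeR adjusted p = 5.85e-11). Here the order of the 2 lower groups was the other way round from Lpl, with PVASC 1.27-fold above Ab-ASC (0.34, SE 0.063, edgeR adjusted p = 0.000674). In that comparison 24.7% of all tested genes were higher in PVASC.

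The other fatty acid uptake and binding genes had calls in both directions. All 13 listed were tested, and in PVASC against Sub-ASC 6 were lower and 5 higher, with a median log2 fold change of 0.13, where 35.7% of all tested genes were lower and 34.7% higher. In Ab-ASC against Sub-ASC 8 were lower and 4 higher (median −0.32, with 38.3% of all tested genes lower and 37% higher), and in PVASC against Ab-ASC 3 were lower and 6 higher (median −0.05, with 32.1% of all tested genes lower and 24.7% higher). Acsl1, which activates fatty acids for triglyceride synthesis in adipocytes, averaged 46.2 CPM in Sub-ASC, 12.5 CPM in Ab-ASC and 14.4 CPM in PVASC, and was lower in both of the latter (log2 fold changes −1.89 and −1.69, edgeR adjusted p = 2.96e-10 and 5.93e-10). Fabp3, the muscle and heart relative of Fabp4, was higher in both, at 3.81 CPM in Ab-ASC and 3.20 CPM in PVASC against 1.01 CPM in Sub-ASC (log2 fold changes 1.92 and 1.67, edgeR adjusted p = 1.16e-06 and 3.99e-06). Fabp5, the epidermal relative, was lower than in Sub-ASC by 0.32 in Ab-ASC and 0.37 in PVASC on the log2 scale (edgeR adjusted p = 0.0116 and 0.00533).

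Plin1 (ENSMUSG00000030546, GRCm38 chr7:79720218-79732903, minus strand) had the largest fitted differences of the 8 tested genes. There were 410, 487 and 523 Plin1 reads in Sub-ASC, 1, 3 and 1 in Ab-ASC and 8, 10 and 10 in PVASC. Sub-ASC stood far above the other groups, and every PVASC library lay above every Ab-ASC library. The fitted log2 fold change was −5.96 in PVASC against Sub-ASC (SE 0.158, edgeR adjusted p = 4.75e-12) and −7.82 in Ab-ASC against Sub-ASC (SE 0.215, edgeR adjusted p = 6.33e-12). Counted over the 3 libraries of a group, Plin1 was 63.4 times higher in Sub-ASC than in PVASC (95% exact counting interval 43.7 to 95.7) and 241 times higher than in Ab-ASC (103 to 743). PVASC exceeded Ab-ASC by 1.86 on the log2 scale (SE 0.476, edgeR adjusted p = 0.00545), on 28 against 5 reads, a ratio of 3.80 with a counting interval of 1.45 to 12.6. Without Ab-ASC replicate 2, which held 3 of those 5 reads, the log2 fold change was 2.50 for PVASC against Ab-ASC and −8.46 for Ab-ASC against Sub-ASC.

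The bases just upstream of Plin1, Adipoq and Lep, an adipocyte coat gene and the genes of the best known adipokines, are printed to show which of the motifs searched lie next to their starts. These were the motifs of the adipogenic factors C/EBP and PPAR-RXR, the C/EBP palindrome TTGCGCAA, which overlaps the C/EBP motif, and the general CCAAT and TATA boxes. Windows of 250 bases upstream of the start were found for 8 of the 10 genes in RefSeq (GRCm38.p6), and Fabp4 and Lpl had no entry. Among 32851 such windows of all genes, the C/EBP motif TTGCNNAA, searched on both strands, was in 9.56%, the CCAAT box in 33.8%, the PPAR-RXR motif, a direct repeat of AGGTCA with 1 base N in between, in 0.0335%, the C/EBP palindrome in 0.164% and the TATA box TATAAA in 12.4%. The C/EBP motif was in the windows of Plin1 and Lep, the CCAAT motif in those of Adipoq and Cd36 and the palindrome in that of Lep. The PPAR-RXR motif and the exact letters TATAAA were in none of the windows found for the 8 genes. Near matches to these letters were not searched, so a variant TATA box or PPAR-RXR site would be missed. The motif letters are in capitals, and each sequence runs 5′ to 3′ on the strand of the gene. For Plin1 the stretch is chr7:79732904-79733026, for Adipoq chr16:23146286-23146535 and for Lep chr6:29059971-29060219.
Plin1: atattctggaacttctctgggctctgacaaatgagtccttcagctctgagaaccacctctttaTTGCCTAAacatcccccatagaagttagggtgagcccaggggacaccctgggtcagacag
Adipoq: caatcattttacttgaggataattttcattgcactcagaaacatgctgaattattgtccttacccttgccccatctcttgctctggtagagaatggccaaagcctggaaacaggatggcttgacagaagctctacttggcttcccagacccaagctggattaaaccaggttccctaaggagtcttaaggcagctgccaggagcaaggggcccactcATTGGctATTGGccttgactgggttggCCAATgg
Lep: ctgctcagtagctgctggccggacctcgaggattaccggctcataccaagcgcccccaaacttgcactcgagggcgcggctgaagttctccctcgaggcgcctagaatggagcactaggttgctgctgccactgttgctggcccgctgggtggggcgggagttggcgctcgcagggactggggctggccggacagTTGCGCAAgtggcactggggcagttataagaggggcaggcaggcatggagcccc
The Plin1 stretch ends 128 bases before the RefSeq start and holds 1 of the 2 C/EBP matches of its window, and the Adipoq stretch holds 3 CCAAT matches, of which 2 read as ATTGG on this strand. Over the Sub-ASC libraries Plin1 had 1420 reads, Adipoq 50 and Lep 0.

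Pnpla2 (ENSMUSG00000025509, GRCm38 chr7:141455198-141460743, plus strand), which encodes the lipase that takes the initial step of fat breakdown, had the smallest differences of the 8 tested genes. It was read 618, 689 and 677 times in Sub-ASC, 467, 499 and 470 times in Ab-ASC and 788, 682 and 662 times in PVASC. The means were 26.5 ± 0.634 CPM, 22.7 ± 2.11 CPM and 22.75 ± 1.55 CPM (SD, n = 3 each). Sub-ASC lay above the other groups without overlap, whereas Ab-ASC and PVASC overlapped. The log2 fold change was −0.22 in PVASC against Sub-ASC (SE 0.0797, edgeR adjusted p = 0.0273) and −0.22 in Ab-ASC against Sub-ASC (SE 0.0815, edgeR adjusted p = 0.0262). Both calls ended in several settings, among them without Sub-ASC replicate 1 or 2 (adjusted p up to 0.0825), without PVASC replicate 3 for PVASC (adjusted p = 0.155) and without Ab-ASC replicate 3 for Ab-ASC (adjusted p = 0.133). Between PVASC and Ab-ASC the difference was 0.00, with a 95% interval of −0.17 to 0.18 (edgeR adjusted p = 0.977).

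Lipe (ENSMUSG00000003123, GRCm38 chr7:25379527-25398710, minus strand), the gene of hormone-sensitive lipase, had 372, 357 and 400 reads in Sub-ASC, 50, 60 and 61 in Ab-ASC and 111, 96 and 93 in PVASC. The groups did not overlap. Lipe was 4.70-fold lower in PVASC than in Sub-ASC (log2 fold change −2.23, SE 0.0996, edgeR adjusted p = 6.38e-10) and 5.6-fold lower in Ab-ASC than in Sub-ASC (−2.48, SE 0.109, edgeR adjusted p = 5.1e-10). PVASC was 1.19-fold above Ab-ASC, which did not pass the test (0.25, 95% interval −0.02 to 0.52, edgeR adjusted p = 0.105). The gene 4732471J01Rik overlaps Lipe on the opposite strand, where the libraries held 2 to 13 reads, and reads of the pair cannot be told apart if strand was not used in counting.

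Their partners were measured in the same libraries. Of 14 further droplet and lipolysis genes, 11 were tested, and 8 were lower and 2 higher in PVASC than in Sub-ASC (median log2 fold change −1.07, with 35.7% of all tested genes lower and 34.7% higher). In Ab-ASC against Sub-ASC 8 were lower and 0 higher (median −0.78, with 38.3% of all tested genes lower and 37% higher), and in PVASC against Ab-ASC 4 were lower and 3 higher (median −0.13, with 32.1% of all tested genes lower and 24.7% higher). Adrb3 was above the filter in all libraries of Sub-ASC only, and the other 10 genes gave the same counts. Plin4, another droplet coat gene, followed the order of Plin1, with 47.1 CPM in Sub-ASC, 0.835 CPM in Ab-ASC and 8.54 CPM in PVASC. Its log2 fold change was −5.79 in Ab-ASC against Sub-ASC, −2.46 in PVASC against Sub-ASC and 3.32 in PVASC against Ab-ASC (edgeR adjusted p = 7.28e-12, 6.52e-10 and 2.23e-08). Plin2, the coat gene found in most cell types, differed less, at 225.7 CPM, 190.3 CPM and 105.5 CPM in Sub-ASC, Ab-ASC and PVASC.

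G0s2, an inhibitor of the Pnpla2 lipase, was at 33.6 CPM in Sub-ASC, 1.58 CPM in Ab-ASC and 2.07 CPM in PVASC, and was lower than in Sub-ASC in both (log2 fold changes −4.41 and −4.02, edgeR adjusted p = 1.2e-11 and 1.12e-11). Abhd5, the activator of the same lipase, was also lower in both, by 0.78 in Ab-ASC and 0.91 in PVASC on the log2 scale (edgeR adjusted p = 3.65e-07 and 8.17e-08). These values stand beside −0.22 for the lipase gene itself in both comparisons. Mgll, whose product cleaves the last fatty acid from the glycerol backbone, was lowest in PVASC, at 7.62 CPM against 18.9 CPM in Ab-ASC and 27.6 CPM in Sub-ASC (edgeR adjusted p = 1.15e-06 and 9.4e-09). Prkar2b, a regulatory subunit of protein kinase A, was higher in PVASC than in Ab-ASC by 1.06 and than in Sub-ASC by 0.88 on the log2 scale (edgeR adjusted p = 2.39e-07 and 3.49e-07).

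**Figure D2:**
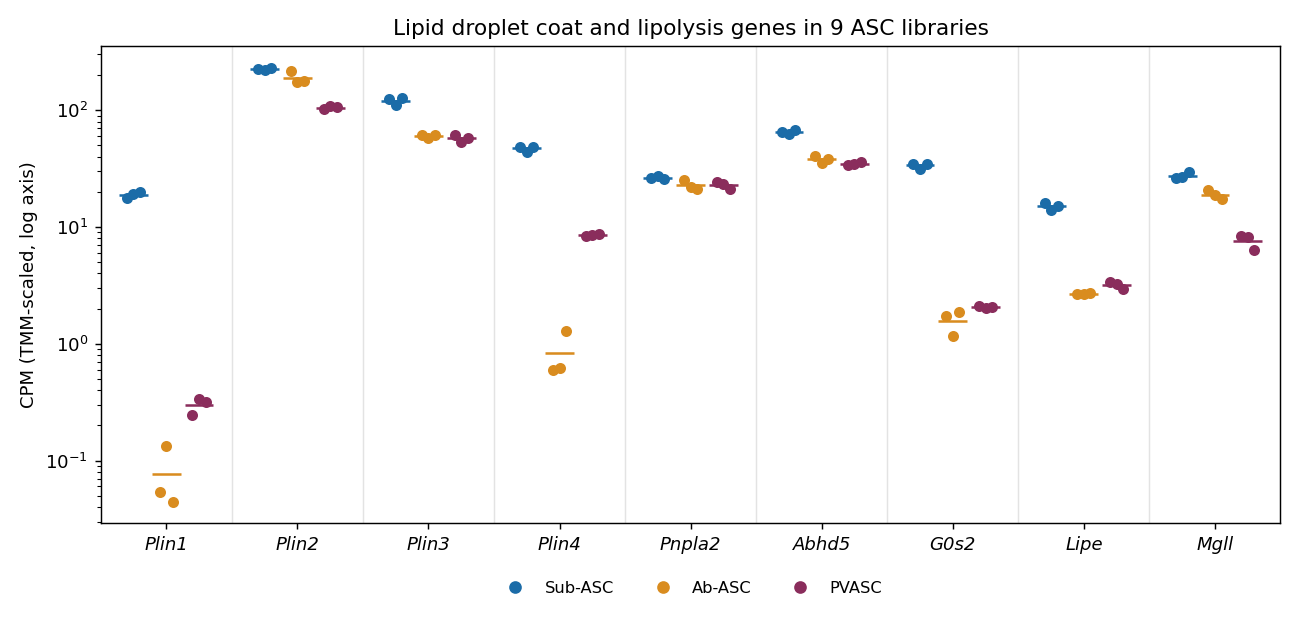
Level in each library of Plin1, the lipase genes and their partners, in CPM on a log axis, with 3 points per group and the group mean as a bar. Pnpla2 differs little between groups, while Plin1, Plin4 and G0s2 are far higher in Sub-ASC than in Ab-ASC or PVASC.

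Genes of triglyceride synthesis were measured as well. Of 14 listed, 12 were tested, with 7 lower and 4 higher in PVASC than in Sub-ASC (median log2 fold change −0.16, with 35.7% of all tested genes lower and 34.7% higher), 5 lower and 4 higher in Ab-ASC than in Sub-ASC (median −0.27, with 38.3% of all tested genes lower and 37% higher) and 8 lower and 3 higher in PVASC than in Ab-ASC (median −0.30, with 32.1% of all tested genes lower and 24.7% higher). Aqp7, Gpat3 and Gpd1 did not pass the filter in every group, and among the other 9 genes the numbers were 6 lower and 2 higher, 4 lower and 3 higher, and 8 lower and 1 higher in the same order. Gpam and Gpat3 both encode enzymes that start glycerolipid synthesis. Gpam was at 74.8 CPM in Sub-ASC, 34.6 CPM in Ab-ASC and 21 CPM in PVASC, lower in PVASC than in Sub-ASC by 1.83 on the log2 scale (edgeR adjusted p = 7.44e-11). Gpat3 was at 0.213 CPM, 1.45 CPM and 1.75 CPM, higher in PVASC than in Sub-ASC (log2 fold change 3.003, edgeR adjusted p = 1.43e-05). Aqp7, the glycerol channel of adipocytes, was counted 73 times in Sub-ASC, 2 times in Ab-ASC and 18 times in PVASC, so that PVASC exceeded Ab-ASC 6.11 times (95% exact counting interval 1.46 to 54.3). Aqp7 entered the test through Sub-ASC alone, and Gpat3 did not pass in Sub-ASC, where it is low. A difference from Sub-ASC was thus built into the entry of both, and the p-value of Gpat3 against Sub-ASC carries that limit.

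The secreted factors were read at low levels in all groups. Cfd (ENSMUSG00000061780, GRCm38 chr10:79890853-79892655, plus strand), the complement protease adipsin, had 25, 33 and 38 reads in Sub-ASC, 2, 1 and 0 in Ab-ASC and 5, 0 and 5 in PVASC. All Sub-ASC libraries were above the rest. The log2 fold change was −3.53 in PVASC and −4.62 in Ab-ASC against Sub-ASC (SE 0.517 and 0.668, edgeR adjusted p = 5.59e-05 and 4.39e-05). Summed reads put Cfd 12 times higher in Sub-ASC than in PVASC (95% exact counting interval 6.25 to 25.8) and 27.1 times higher than in Ab-ASC (9.01 to 134). Ab-ASC and PVASC overlapped and did not differ by the test (log2 fold change 1.09, 95% interval −1.14 to 3.33, edgeR adjusted p = 0.383; 0.51 to 2.04 with 1 library left out). Without Ab-ASC replicate 1 the value against Sub-ASC was −5.57, and without Ab-ASC replicate 3 it was −4.03.

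Adipoq (ENSMUSG00000022878, GRCm38 chr16:23146536-23158028, plus strand), the gene of adiponectin, was counted 17, 11 and 22 times in Sub-ASC, 1, 1 and 0 times in Ab-ASC and 3, 2 and 1 times in PVASC. Sub-ASC averaged 0.667 ± 0.210 CPM (SD, n = 3), above all 6 other libraries. The fitted log2 fold changes against Sub-ASC were −3.29 in PVASC and −4.21 in Ab-ASC (SE 0.509 and 0.651, edgeR adjusted p = 9.01e-05 and 7.83e-05). By summed reads Adipoq was 10.4 times higher in Sub-ASC than in PVASC (95% exact counting interval 4.46 to 29.7) and 21.2 times higher than in Ab-ASC (5.57 to 180). A difference between PVASC and Ab-ASC was not detectable on 6 against 2 reads (log2 fold change 0.92, 95% interval −1.23 to 3.08, edgeR adjusted p = 0.446).

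Retn (ENSMUSG00000012705, GRCm38 chr8:3655770-3660110, plus strand), the resistin gene, went in another order on very few reads. It was counted 1, 2 and 5 times in Sub-ASC, 8, 7 and 3 times in Ab-ASC and 0, 0 and 1 times in PVASC. Every Ab-ASC library lay above every PVASC library, and Sub-ASC overlapped Ab-ASC. Summed reads gave Retn as 26.5 times higher in Ab-ASC than in PVASC (95% exact counting interval 4.19 to 1110), 10 times higher in Sub-ASC than in PVASC (1.34 to 444) and 2.65 times higher in Ab-ASC than in Sub-ASC (1.10 to 7.05). With no filter on low counts, Ab-ASC against PVASC passed the test (edgeR adjusted p = 0.0011) while PVASC against Sub-ASC and Ab-ASC against Sub-ASC did not (adjusted p = 0.0678 and 0.196). These intervals cover counting error only.

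Lep (ENSMUSG00000059201, GRCm38 chr6:29060220-29073877, plus strand), the leptin gene, had 0 reads in all 9 libraries. A count of 0 allows up to 3 reads in a library, which is 0.0917 to 0.161 CPM at these depths. No fold was formed.

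**Figure D3:**
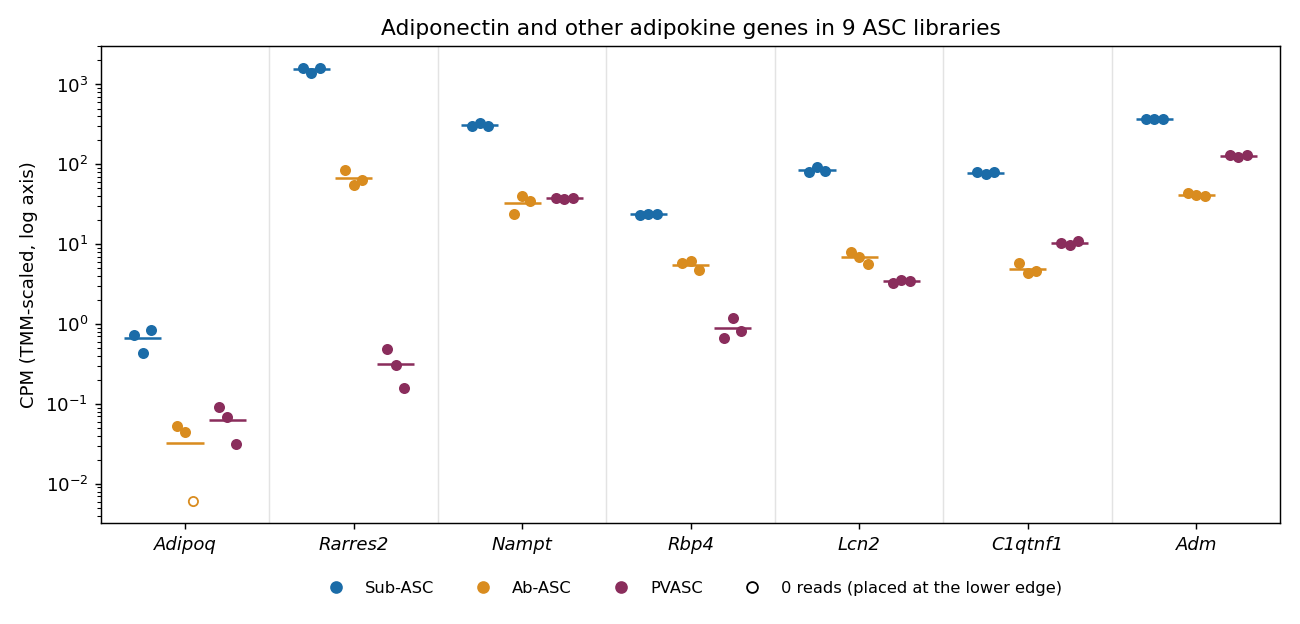
Level in each library of Adipoq and other secreted adipokine genes, in CPM on a log axis, with 3 points per group and the group mean as a bar. Rarres2 falls from about 1541 CPM in Sub-ASC to 0.318 CPM in PVASC, Adipoq stays under 1 CPM throughout, and Adm is lowest in Ab-ASC.

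Other genes of adipose-secreted factors were measured in the same way. Of 15 listed, 13 were tested, with 11 lower and 1 higher in PVASC than in Sub-ASC (median log2 fold change −2.08, with 35.7% of all tested genes lower and 34.7% higher), 11 lower and 1 higher in Ab-ASC than in Sub-ASC (median −2.09, with 38.3% lower and 37% higher), and 7 lower and 3 higher in PVASC than in Ab-ASC (median −0.255, with 32.1% of all tested genes lower and 24.7% higher). Rarres2 did not pass the filter in all PVASC libraries and so entered through the groups where it is high. Among the 12 genes above the filter in every group, 10 were lower and 1 was higher in each comparison with Sub-ASC, and 6 were lower and 3 higher in PVASC than in Ab-ASC. Rarres2, which encodes the chemoattractant chemerin, was at 1541 CPM in Sub-ASC, 67.7 CPM in Ab-ASC and 0.318 CPM in PVASC, lower in PVASC than in Sub-ASC (log2 fold change −12.21, edgeR adjusted p = 3.64e-13). Nampt, the NAD synthesis enzyme also called visfatin, was at 312.5 CPM, 33.1 CPM and 37.4 CPM in the same order. Adm, which encodes the vasodilator peptide adrenomedullin, was at 369.7 CPM in Sub-ASC, 41.5 CPM in Ab-ASC and 129 CPM in PVASC, with PVASC higher than Ab-ASC by 1.64 on the log2 scale (edgeR adjusted p = 2.46e-10).

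Receptors for these factors were read too. Of 7 listed, 6 were tested, and 2 were lower and 2 higher in PVASC than in Sub-ASC (median log2 fold change −0.32, with 35.7% of all tested genes lower and 34.7% higher), 3 lower and 2 higher in Ab-ASC than in Sub-ASC (median −0.69, with 38.3% of all tested genes lower and 37% higher), and 3 lower and 1 higher in PVASC than in Ab-ASC (median −0.13, with 32.1% of all tested genes lower and 24.7% higher). The adiponectin receptor genes differed in direction. Adipor1 was higher than in Sub-ASC, by 0.41 in PVASC and 0.63 in Ab-ASC on the log2 scale (edgeR adjusted p = 0.000122 and 2.49e-06), whereas Adipor2 was lower, by 0.98 and 0.94 (edgeR adjusted p = 4.39e-09 and 6.49e-09). Cdh13, which encodes T-cadherin and binds adiponectin, had 21.3 CPM in Sub-ASC, 2.49 CPM in Ab-ASC and 18.7 CPM in PVASC, 2.93 higher on the log2 scale in PVASC than in Ab-ASC (edgeR adjusted p = 3.07e-08). The leptin receptor gene Lepr passed the test in no comparison (edgeR adjusted p = 0.412, 0.244 and 0.0589 for PVASC against Sub-ASC, PVASC against Ab-ASC and Ab-ASC against Sub-ASC).

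**Figure D4:**
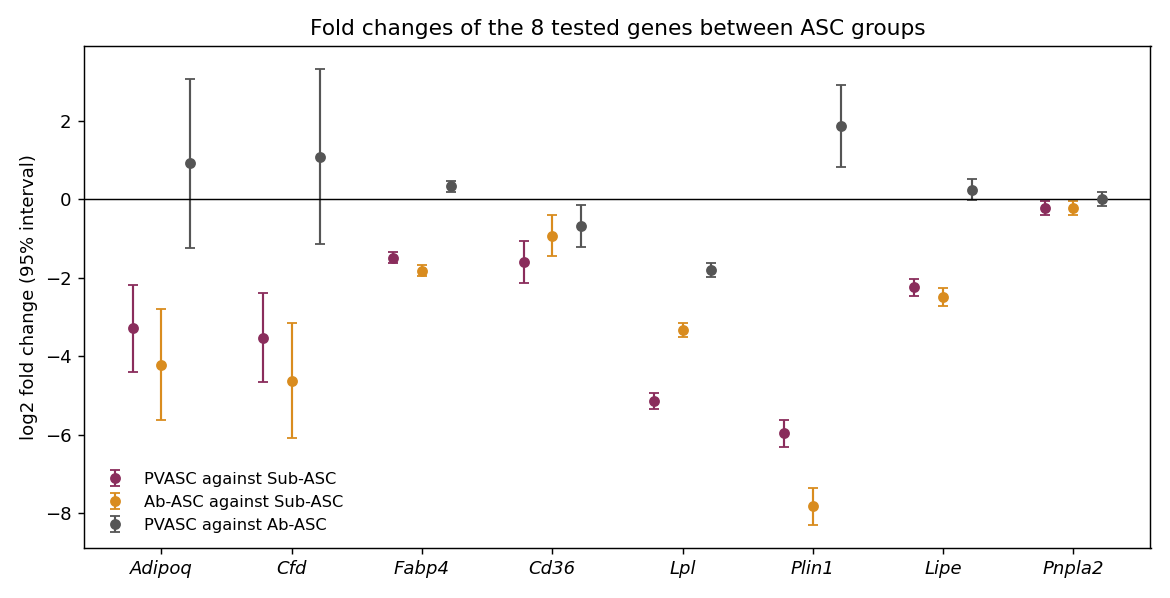
Log2 fold changes of the 8 tested genes in the 3 comparisons, with 95% intervals as error bars. The values against Sub-ASC run from −0.22 for Pnpla2 to −7.82 for Plin1, and PVASC against Ab-ASC has Lpl and Cd36 on the lower side and Fabp4 and Plin1 on the higher side.

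PVASC and Ab-ASC, the 2 groups with the lower readings, did not rank alike across the genes. Of the 8 tested genes, Lpl and Cd36 were lower and Fabp4 and Plin1 higher in PVASC, while Lipe, Pnpla2, Adipoq and Cfd did not pass the test. These 4 calls of 8 lie close to the 56.9% called over all tested genes, with 32.1% lower and 24.7% higher. The median log2 fold change was 0.30 for the 8 genes and −0.0552 over all tested genes. Among the 5 genes above the filter in every group, which leave out Plin1, 2 were lower, 1 was higher and the median was 0.00.

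Levels of different genes can be set side by side only per length. In FPKM (counts divided by the library total, without TMM factors, and by gene length) with the gene length in the table, Sub-ASC had 356 for Lpl, 28.1 for Fabp4, 24.4 for Cd36, 8.58 for Pnpla2, 3.98 for Plin1, 2.51 for Lipe, 1.35 for Cfd and 0.473 for Adipoq. Among tested genes Lpl in Sub-ASC stood at the 99.3rd percentile and in PVASC at the 73.8th, and Plin1 went from the 51.5th in Sub-ASC to the 2.03rd in Ab-ASC. Fabp4 and Cd36 in Sub-ASC were close neighbours in that order, 28.1 ± 1.59 and 24.4 ± 1.52 FPKM (SD, n = 3 each). The length used for Fabp4 was 4489 bases, the whole gene with its introns, against 896 bases for its longest coding transcript. With transcript lengths Fabp4 rose to 141 FPKM and Lpl to 908 FPKM in Sub-ASC, and Cd36 was at 25.8 FPKM. In PVASC the pair Lpl and Fabp4 was nearly level with table lengths, at 11.4 and 11.2 FPKM, whereas transcript lengths put Fabp4 at 56.4 FPKM and Lpl at 28.9 FPKM.

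The transcription factors that drive or hold back adipogenesis were all tested, 17 of 17, with 12 lower and 5 higher in PVASC than in Sub-ASC (median log2 fold change −1.13, with 35.7% of all tested genes lower and 34.7% higher), the same numbers in Ab-ASC against Sub-ASC (median −1.14, with 38.3% of all tested genes lower and 37% higher), and 6 lower and 5 higher in PVASC than in Ab-ASC (median −0.06, with 32.1% of all tested genes lower and 24.7% higher). Gata3, a gene that did not pass the filter in every group, is among them, and the other 16 genes had 12 lower and 4 higher in each comparison with Sub-ASC. Pparg, the master regulator of adipocyte formation, was at 42.1 CPM in Sub-ASC, 14.6 CPM in Ab-ASC and 24.9 CPM in PVASC. It was lower than in Sub-ASC by 0.76 in PVASC and 1.53 in Ab-ASC on the log2 scale (edgeR adjusted p = 8.28e-07 and 1.61e-09). Cebpa, its partner in the programme, was lowest in PVASC, at 20.7 CPM against 40.5 CPM in Ab-ASC and 116 CPM in Sub-ASC. Gata2, a repressor of adipogenesis, was higher than in Sub-ASC by 3.84 in PVASC and 3.81 in Ab-ASC (edgeR adjusted p = 1.2e-11 and 1.34e-11). Klf5, which promotes adipogenesis, was also higher than in Sub-ASC, by 2.30 in PVASC and 2.96 in Ab-ASC (edgeR adjusted p = 1.45e-06 and 9.51e-08). Of 8 thermogenic genes 4 were tested, and 2 of the 4, Ppargc1a and Cox7a1, did not pass the filter in every group, so counts of their calls are not given. The list summed to 14.4 to 16.5 CPM in Sub-ASC, 10.8 to 12.8 CPM in Ab-ASC and 43.1 to 46.4 CPM in PVASC. Dio2, which encodes the enzyme that activates thyroid hormone, averaged 4.004, 7.645 and 34.46 CPM in the same order. The PVASC sum is therefore mostly a reading of 1 gene. Dio2 was higher in PVASC than in Sub-ASC by 3.10 and than in Ab-ASC by 2.17 on the log2 scale (edgeR adjusted p = 1.18e-10 and 9.63e-09). Mean levels of Ppargc1a and Cox7a1 were lower in PVASC (0.4462 and 0.4157 CPM) than in Sub-ASC (2.19 and 1.358 CPM). Prdm16 did not differ by the test between PVASC and Sub-ASC (edgeR adjusted p = 0.101) and was higher in PVASC than in Ab-ASC (edgeR adjusted p = 2.39e-06). Ucp1, the brown adipocyte uncoupling protein, had 0 reads in every library.

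**Figure D5:**
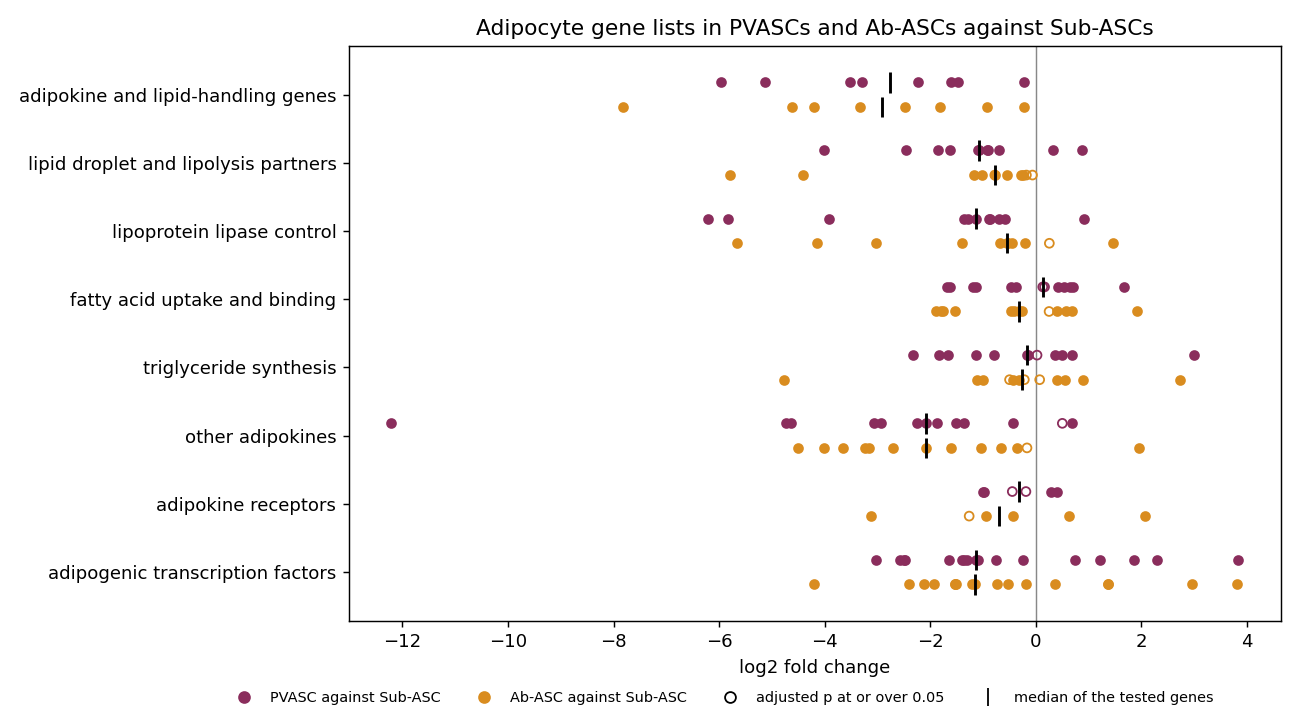
Log2 fold changes of the tested genes of each list, PVASC and Ab-ASC each against Sub-ASC, with filled points for genes past the test, open points for those not past it and a black tick at the list median. The medians of the adipogenic transcription factors are −1.13 and −1.14, and those of fatty acid uptake and binding are 0.13 and −0.32.

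Markers of other cells moved with the depots as well. The summed level of 10 endothelial markers ran from 214 to 229 CPM in Sub-ASC, from 77.2 to 80.1 CPM in Ab-ASC and from 876 to 881 CPM in PVASC, with none at 0, and 8 of 10 were higher in PVASC than in Sub-ASC while 9 of 10 were lower in Ab-ASC than in Sub-ASC, against 34.7% higher and 38.3% lower over all tested genes. The sum of 10 mesothelial markers was 3.31 to 3.81 CPM in Sub-ASC, 124 to 133 CPM in Ab-ASC and 48.3 to 49.9 CPM in PVASC, with Upk1b, Lrrn4 and Muc16 at 0 in Sub-ASC. Of these, 9 were tested, and 8 of the 9 entered through fewer than all groups, so counts of their calls are not given. Macrophages also express Lpl, Cd36 and Fabp4. Their 12 markers summed to 372 to 383 CPM in Sub-ASC, 360 to 464 CPM in Ab-ASC and 350 to 362 CPM in PVASC, with none at 0. Of the 12, 10 were lower in PVASC and 10 in Ab-ASC than in Sub-ASC, where 35.7% and 38.3% of all tested genes were lower. Lyz2, 1 of the 2 higher markers, weighed most in the sums, at 162.5 CPM in Sub-ASC, 271 CPM in Ab-ASC and 249 CPM in PVASC. The nearly level sums therefore do not describe most of the list. Of the 10 mesenchymal stem cell markers 5 were higher and 5 lower in PVASC than in Sub-ASC, against 34.7% and 35.7% over all tested genes. The part of these cells in the levels of Lpl, Cd36, Fabp4 and the other genes was not tested.

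Genes with the pattern most like each tested gene were taken by Pearson's r of log2 CPM over the 9 libraries, among 13874 coding genes. The 9 points fall into 3 groups, so r mostly reflects the order of the depots, and it is a description. For Lpl these were Cxcl5 (r = 0.9994) and Nrcam (r = 0.9991), for Fabp4 Parp3 (0.999) and Lrch1 (0.9983), and for Plin1 Plcb1 (0.9986) and Ccdc152 (0.9985). Lipe was most like Sbno2 (0.9989) and Gas1 (0.9987), Cd36 most like Hcfc2 (0.9939) and Zeb2 (0.986), and Adipoq most like Coasy (0.9863) and Scyl3 (0.9857). Cfd was most like a gene held in the table under the date-like symbol 9-Mar (0.9939) and Mrgbp (0.9896). Pnpla2 had the loosest match, with Rprd1b at 0.9639.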

How the data were processed

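Bulk mRNA libraries of mouse ASCs were used (9 libraries, 3 per depot, grouped by the tissue in the labels). The authors deposited whole-number read counts per gene with gene length and position. Per the labels, the processing notes of the submitters name CASAVA 1.8, Bowtie 0.12.2, featureCounts 1.5.0-p3 and the builds mm8 and mm10, with no role given. The positions of the 10 genes equal those of GRCm38 in GENCODE M21. Whether strand was used in counting is not given in the sources used here. Multi-copy and overlapping genes may be split or merged by such counting. The 10 genes and all gene lists were chosen with earlier results of these data known, and within the lists up to 4 genes per comparison were named by size of change among those called and at least 2-fold different, together with the partners Gpihbp1, Abhd5, G0s2, Mgll, Pparg, Cebpa, Angptl4, Plin2, Fabp5, Adipor1, Adipor2 and Lepr. Ucp1, Lyz2, Prdm16, Sdc1 in PVASC and Plin3 in the plot of lipolysis genes were chosen after their values were seen. So were the markers at 0 and genes named for how they passed the filter. A gene of the adipokine list is not reported here and was left out of its counts.

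Genes were filtered with filterByExpr (at least 3 libraries, of any group, above about 0.385 CPM) and TMM-scaled, and all 9 libraries were fitted with edgeR 4.0.16 (quasi-likelihood test, 2-sided, R 4.3.3) with Benjamini-Hochberg adjustment at 0.05. The methods of the study state no test for these counts. The main fit had no replicate term. Counting ratios used exact conditional binomial intervals, with counting error only. DESeq2 1.42.0, RLE scaling, other filters, pairs of groups alone, a replicate block, a fold minimum, leaving out each library and, chosen after seeing the data, transcript lengths were tried as alternatives. The fitting script was tested on simulated counts. No pair of libraries was a repeat of the other within sampling noise. Depth differed by under 1.5-fold between libraries.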

Additional observations from a re-analysis of the deposited data

How the results depend on the processing

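No called value turned its direction under the settings tried for it (19 settings in all, not each for every result), while Pnpla2 in PVASC against Ab-ASC, which was not called, ran from −0.06 to 0.08 on the log2 scale. Of 489 values, 455 kept their side of the threshold, moved within the spread between replicates or, for counts of genes, stayed within 1.5 times. With at least 10 reads in every library only Fabp4, Cd36, Lpl, Lipe and Pnpla2 could be tested. Then 5 of the 10 genes were called in PVASC against Sub-ASC, 5 in Ab-ASC against Sub-ASC, 5 among the 3 groups and 2 in PVASC against Ab-ASC. In the main fit 70.4%, 75.3%, 84.6% and 56.9% of all tested genes were called in the same order. Fitting PVASC and Ab-ASC alone also left 5 genes tested and 2 called. A fold minimum of 1 on the log2 scale left 5328, 2551 and 6241 genes called in PVASC against Sub-ASC, PVASC against Ab-ASC and Ab-ASC against Sub-ASC, and 2 of the 10 genes in PVASC against Ab-ASC. Leaving out 1 library gave 10954 to 12736, 8294 to 9675 and 11976 to 12714 genes for PVASC against Sub-ASC, PVASC against Ab-ASC and Ab-ASC against Sub-ASC. Of the 10 genes 7 to 8, 3 to 4 and 7 to 8 were called. The counts against Sub-ASC include Adipoq, Cfd and Plin1, for which a difference from Sub-ASC was built into their entry. Apart from the fold minimum, which by construction ends calls of under 1 on the log2 scale, and genes no longer tested, the calls that ended were those of Pnpla2 against Sub-ASC (adjusted p from 0.0505 to 0.155) and of Cd36 between PVASC and Ab-ASC (0.054 to 0.148); beyond the constructions named, the cause was not tested.

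Replicates of the same number deviated together only weakly (correlations from −0.0405 to 0.0723). In PVASC against Sub-ASC the best match of each PVASC library was the Sub-ASC library of its own number (0.0222 to 0.032). Whether libraries of the same number share an animal or a batch was not tested. With the replicate block 11458, 9183 and 12302 genes were called, and 8, 4 and 8 of the 10 genes, again with Adipoq, Cfd and Plin1 in the counts against Sub-ASC. Without it 11628, 9396 and 12442 genes were called, or 70.4%, 56.9% and 75.3% of those tested.

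Few reads limit Adipoq, Cfd, Retn and Lep. With 0 to 3 Adipoq reads and 0 to 5 Cfd reads a library, differences between PVASC and Ab-ASC were not detectable for this pair, and a count of 0 for Lep bounds its level only at 3 reads a library.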
